A study of Mus musculus with 14 samples.

Results

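Peaks of the histone variant H2A.Z were examined around 6 genes of the fetal growth programme, Lin28b, Igf2bp1, Igf2bp3, Hmga2, H19 and Igf2, in the mouse small intestinal epithelium. The members were all peaks that overlapped 5 padded windows of the mm9 genome, since H19 and Igf2 share a window: 96 of the 165455 peaks in the 8 deposited lists, which joined into 32 of 45028 union regions. The windows were chr10:45075000-45230000 for Lin28b (155 kb), chr11:95798000-95888000 for Igf2bp1 (90.0 kb), chr6:49015000-49185000 for Igf2bp3 (170 kb), chr10:119778000-119935000 for Hmga2 (157 kb) and chr7:149740000-149860000 for H19 and Igf2 (120 kb). No gene table of mm9 was used here, so the windows were not checked against gene models, no peak was assigned to a promoter, exon, intron or UTR, and a padded window can hold peaks of a neighbouring gene.

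Chromatin immunoprecipitation with sequencing was done on 4 stages with 2 H2A.Z libraries each: epithelium of embryos at E12.5 and at E14.5 (days of gestation), Lgr5+ intestinal stem cells (ISC) of adults, and enterocytes of adults. All mice were of a mixed C57BL/6 CD1 background. The embryonic cells were sorted as EpCAM+ CD31- CD45- DAPI-. The adult cells came from Lgr5EGFP-Cre-ERT males at postnatal day 60, ISC being the cells with high EGFP driven from the Lgr5 locus and enterocytes being sorted as EpCAM+ CD31- CD45- DAPI- cells, a gate that holds no marker particular to enterocytes. The labels tell neither how many animals made up a library nor whether the embryos carried the reporter, so p-values measure only the spread between these libraries. The labelled cell types were not checked against marker genes, which the peak lists do not name.

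H2A.Z replaces the core histone H2A in nucleosomes that flank the starts of active and poised genes and at enhancers, so a peak marks chromatin and does not measure transcription. LIN28B is an RNA-binding protein that blocks the maturation of the let-7 microRNAs, and let-7 in turn represses Hmga2, Igf2bp1 and Lin28b itself. IGF2BP1 and IGF2BP3 are oncofetal proteins that bind messenger RNAs, among them that of Igf2, a growth factor of the fetus. HMGA2 is an architectural chromatin protein of embryonic cells. H19 is a long non-coding RNA expressed from the maternal allele next to Igf2, which is expressed from the paternal one. These genes are known for high expression before birth and low expression in most adult tissues.

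The promoters of 3 of these genes are shown because their windows held the region shared by all 8 libraries (Lin28b), the most regions (Igf2bp3) and the largest difference in coverage between embryonic and adult libraries (Hmga2). RefSeq's tables for build GRCm38.p6 held a promoter for 4 of the 6 genes (Lin28b, Igf2bp3, Hmga2 and 4 alternative ones for Igf2), all on the minus strand. Each sequence runs from 250 bases before to 50 after a start, with every CG dinucleotide in capitals. Their coordinates are of GRCm38.p6 and cannot be laid over the mm9 peaks.
Lin28b, chr10:45470152-45470451, minus strand: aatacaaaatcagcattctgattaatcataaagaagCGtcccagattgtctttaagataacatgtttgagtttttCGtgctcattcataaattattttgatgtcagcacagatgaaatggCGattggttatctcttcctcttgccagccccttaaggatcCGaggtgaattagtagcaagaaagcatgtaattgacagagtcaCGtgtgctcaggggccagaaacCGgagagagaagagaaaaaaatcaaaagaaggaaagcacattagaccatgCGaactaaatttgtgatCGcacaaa
Igf2bp3, chr6:49214905-49215204, minus strand: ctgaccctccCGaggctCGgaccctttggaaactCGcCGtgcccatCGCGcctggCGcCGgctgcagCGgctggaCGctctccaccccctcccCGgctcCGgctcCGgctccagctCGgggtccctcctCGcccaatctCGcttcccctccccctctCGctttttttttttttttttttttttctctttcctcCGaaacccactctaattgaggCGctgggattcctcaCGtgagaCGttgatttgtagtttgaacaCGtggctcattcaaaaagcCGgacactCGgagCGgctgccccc
Hmga2, chr10:120476420-120476719, minus strand: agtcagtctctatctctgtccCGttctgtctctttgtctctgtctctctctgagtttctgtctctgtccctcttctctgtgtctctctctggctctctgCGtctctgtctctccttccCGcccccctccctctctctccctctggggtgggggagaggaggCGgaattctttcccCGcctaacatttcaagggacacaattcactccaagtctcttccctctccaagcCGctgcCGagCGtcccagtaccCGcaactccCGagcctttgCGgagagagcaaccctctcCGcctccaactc
The Lin28b promoter held 8 CG dinucleotides, close to the median of 7 over the 32851 promoters in the table. The Hmga2 promoter held 12 and that of Igf2bp3 25, at the 62.1 and the 83.1 percentile, and the 4 Igf2 promoters held 2 to 24. The E-box CACGTG, which reads the same on both strands and contains a CG, occurred 1 time in the Lin28b promoter, 2 times in that of Igf2bp3 and 0 times in that of Hmga2, and in 7.15% of all promoters. These are matches of letters and show no binding.

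The lists had between 6136 peaks (E14.5 replicate 2) and 32131 (ISC replicate 2) from 27835048 to 41274126 tags, and covered 1.78 to 31.97 Mb. E14.5 replicate 2 and enterocyte replicate 1 stood apart, with a fragment size estimated at 71 and 67 bp against 191 to 247 bp, and median peak widths of 238 and 388 bp against 731 to 921 bp. Their estimates lay at about the tag size, which was 68 bp. Whether they reflect the chromatin or the peak caller's estimate was not tested. The name short-fragment libraries below refers to this estimate alone. The window differences, and the regions at Lin28b and Hmga2 that differed most between embryonic and adult libraries, are therefore also given without these libraries.

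H2A.Z coverage of the 5 windows went in different directions. In the Hmga2 window peaks covered 1.34% and 0.977% at E12.5, 1.25% and 0% at E14.5, 5.76% and 4.84% in ISC, and 2.09% and 6.78% in enterocytes. Every adult library was thus covered more than every embryonic one, and the mean was 4.87% ± 2.01 of the window in adult against 0.892% ± 0.615 in embryonic libraries (SD, n = 4 each). The difference of -3.97 percentage points had the smallest p that 4 against 4 libraries allow (exact two-sided permutation p = 0.0286), but an adjusted p of 0.730 over 15067 features, the windows and all 100 kb tiles of the genome with a peak. No feature had a lower adjusted p, so no window passed the test after adjustment. Every adult library lay above every embryonic one in 2.15% of the 15062 tiles, and the reverse held in 0.299%, so 1 of 5 windows is set against these shares. With equal numbers of peaks per list, the 6136 of lowest p, the Hmga2 difference was -2.15 points, and with peaks of a −log10 q of at least 10 it was -1.47 points.

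The other windows overlapped between embryonic and adult libraries. The Igf2bp3 window was covered to 1.07% and 0.451% at E12.5, 1.18% and 0% at E14.5, 5.01% and 4.53% in ISC, and 0.585% and 2.32% in enterocytes, so that both ISC libraries stood above all others. The Igf2bp3 difference of -2.43 points was -0.537 with equal numbers of peaks and -0.351 at a −log10 q of at least 10. In the Igf2bp3 window the mean coverage was 3.11% ± 2.05 in adult and 0.676% ± 0.553 in embryonic libraries (SD, n = 4 each side; exact p by permutation = 0.0857, adjusted p = 0.730). In the H19 and Igf2 window it was 1.2% ± 1.03 against 0.405% ± 0.595 (SD, n = 4 each side; exact p by permutation = 0.257, adjusted p = 0.788). Both Lin28b and Igf2bp1 had the higher mean in the embryo, and by stage the highest mean was that of E12.5, with 1.84% ± 0.109 at Lin28b and 2.77% ± 1.02 at Igf2bp1, and the lowest that of enterocytes, with 0.481% ± 0.402 and 0.634% ± 0.400 (SD, n = 2 each). The Lin28b window was covered to 1.46% ± 0.556 in embryonic and 0.956% ± 0.623 in adult libraries (SD, n = 4 each side; exact p by permutation = 0.257, adjusted p = 0.788), and the Igf2bp1 window to 1.88% ± 1.43 and 1.18% ± 0.681 (SD, n = 4 each side; exact p by permutation = 0.400, adjusted p = 0.788). The direction at Lin28b turned with the peaks used: the difference of 0.503 points was -0.0755 at a −log10 q of at least 10 and -0.000323 with equal numbers of peaks. Without both libraries of short fragment size the differences, embryonic minus adult, were -4.60 points for Hmga2, -3.05 for Igf2bp3, -1.06 for H19 and Igf2, 0.513 for Lin28b and 1.05 for Igf2bp1, with a smallest possible exact p of 0.100 for 3 against 3 libraries.

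**Figure D1:**
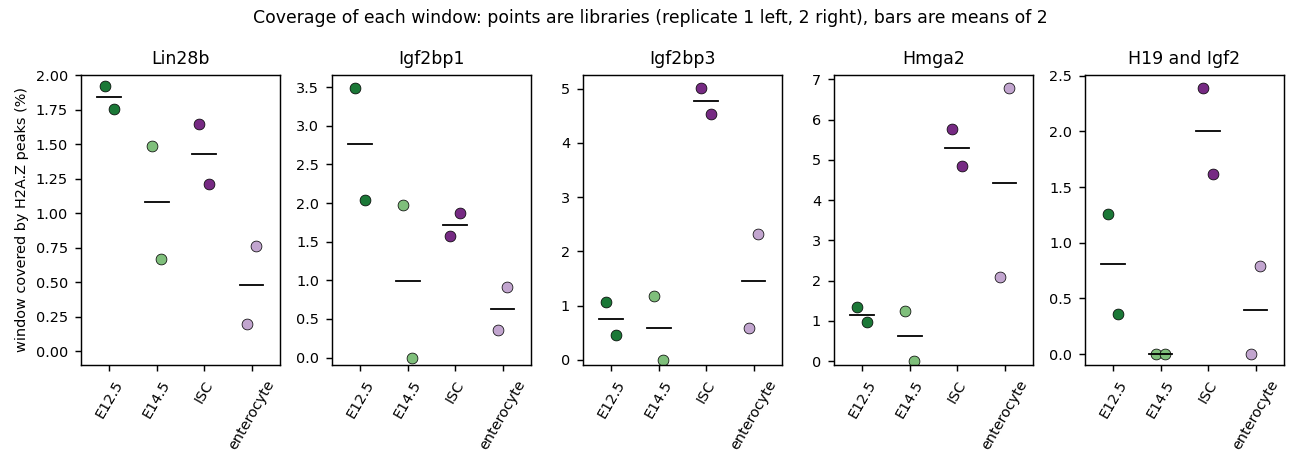
Percent of each window covered by H2A.Z peaks (y axis, linear, a scale of its own per window) at each stage (x axis). Points are libraries, replicate 1 on the left, and bars are means of 2. In the Hmga2 window the 4 adult libraries lie above the 4 embryonic ones, whereas in the Lin28b window the highest values are those of E12.5.

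Since the lists differ in total length, coverage was also expressed per Mb covered by the whole list. On this scale the Lin28b window separated the sides. Its covered bp per Mb were 126 and 149 at E12.5, 165 and 582 at E14.5, 90.2 and 58.6 in ISC, and 43.5 and 60.9 in enterocytes. All embryonic values exceeded all adult ones, with means of 256 ± 218 and 63.3 ± 19.5 bp per Mb (SD, n = 4 each side; exact p by permutation = 0.0286, adjusted p = 0.329). The value of 582 belongs to E14.5 replicate 2, the shortest list. Without that library the embryonic mean was 147 ± 19.4 bp per Mb (SD, n = 3), and the difference fell from 192 to 83.5, still without overlap (exact permutation p = 0.0286, adjusted p = 0.256). Without both short-fragment libraries it was 76.9 (exact permutation p = 0.100, the smallest that 3 against 3 libraries allow). The Hmga2 window had 89.5 and 83.5 bp per Mb at E12.5, 141 and 0 at E14.5, 318 and 238 in ISC, and 469 and 547 in enterocytes, again without overlap (exact permutation p = 0.0286, adjusted p = 0.329). The difference was -314 bp per Mb, and -263 without both short-fragment libraries. At Igf2bp1 it was 42.8 with overlapping groups, and 72.9 without E14.5 replicate 2, where the groups did not overlap (exact permutation p = 0.0286, adjusted p = 0.256). On this scale and with all 8 libraries, 4.25% of tiles had all embryonic above all adult libraries, and 4.43% the reverse. These shares were not computed with libraries left out, so they cannot be set beside the values given without E14.5 replicate 2 or both short-fragment libraries.

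**Figure D2:**
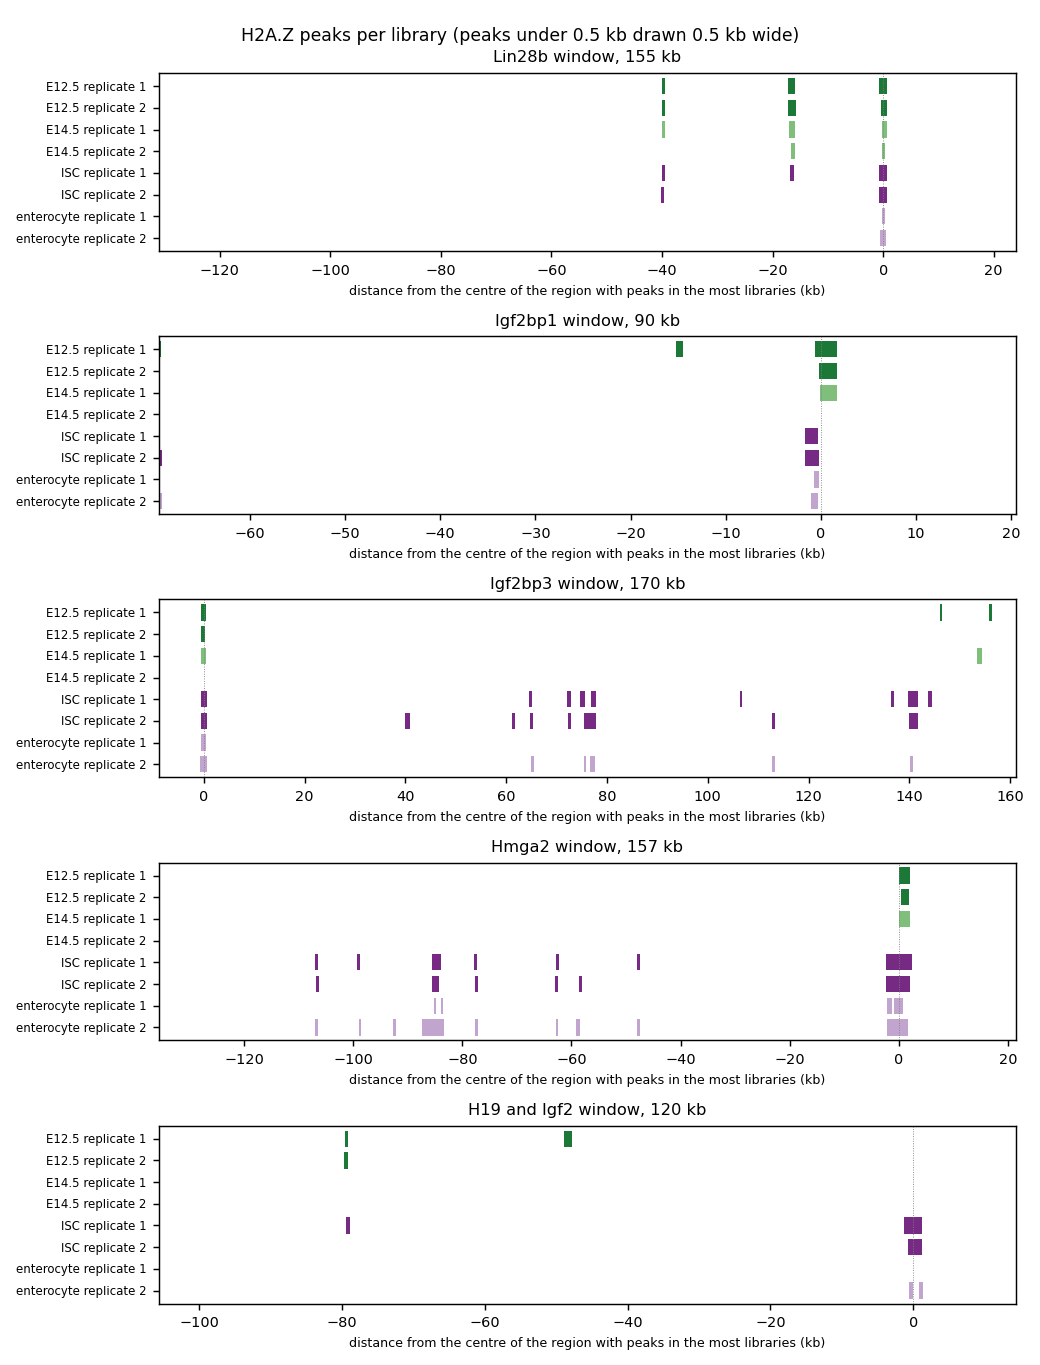
H2A.Z peaks of each library (rows, coloured by stage) in the 5 windows, plotted by distance in kb from the centre of the region with peaks in the most libraries (dotted line). Peaks under 0.5 kb are drawn 0.5 kb wide. The Hmga2 and Igf2bp3 windows hold many ISC and enterocyte replicate 2 peaks with no embryonic counterpart, and the Lin28b window holds 3 regions.

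The Lin28b window was the only window of the 5 with a peak in all 8 libraries, and in 7 of these its highest peak had the highest fold of the 5 windows. The exception was enterocyte replicate 2, in which Igf2bp3 had 5.12 and Lin28b 5.11. Its 3 regions lay 63.8, 40.5 and 24.0 kb from the upper end of the window. The region chr10:45205241-45206746 was the only member region with a peak in all 8 libraries. Its fold enrichment over background, the authors' value per peak, was 4.91 and 4.92 at E12.5, 4.29 and 3.94 at E14.5, 5.66 and 6.56 in ISC, and 5.43 and 5.11 in enterocytes. Within their own lists these peaks stood at the 85.6 and 96.6 percentile at E12.5, 95.8 and 69.7 at E14.5, 95.6 and 99.2 in ISC, and 98.7 and 89.1 in enterocytes. The covered length was 919 ± 445 bp in embryonic and 1091 ± 538 bp in adult libraries (SD, n = 4 each side; exact p by permutation = 0.629, adjusted p = 1.00 over all regions), and the groups overlapped. Without E14.5 replicate 2 the sign of that difference turned, to 17.1 bp higher in the embryo.

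The region chr10:45188794-45190230 was mainly embryonic. It was covered over 1258 and 1437 bp at E12.5, 1040 and 687 bp at E14.5, 689 bp in ISC replicate 1 and 0 bp in ISC replicate 2 and both enterocyte libraries. All embryonic libraries thus had a peak there, and 1 of 4 adult ones, about as wide as the narrowest embryonic one. The means were 1106 ± 323 bp and 172 ± 344 bp (SD, n = 4 each side; exact p by permutation = 0.0571, adjusted p = 0.831). The difference of 933 bp was 1015 bp without both short-fragment libraries, and 172 bp with equal numbers of peaks, where E14.5 replicate 2 alone kept a peak. Its fold stood between 3.56 and 4.39 in the embryonic libraries and was 2.85 in ISC replicate 1, where the peak stood at the 32.4 percentile of its list.

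The remaining Lin28b region, chr10:45165896-45166461, had narrow peaks in both E12.5 libraries, E14.5 replicate 1 and both ISC libraries, and none in enterocytes. Their widths were 275 and 327 bp at E12.5, 349 bp at E14.5 and 415 and 460 bp in ISC, with folds of 3.02 to 3.89. It passed the call for a peak in both ISC and neither enterocyte library.

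At Igf2bp1, H2A.Z was found at the same place in embryonic and adult cells only in part, because the peaks of the 2 sides lay next to each other. The region chr11:95865827-95869233 had a peak in 7 libraries, all but E14.5 replicate 2. The embryonic peaks spanned 95866937 to 95869197 and 95867348 to 95869186 at E12.5, and 95867455 to 95869233 in E14.5 replicate 1. The adult peaks spanned 95865849 to 95867261 and 95865827 to 95867288 in ISC, and 95866822 to 95867137 and 95866528 to 95867167 in enterocytes. Every embryonic peak reached farther towards higher coordinates than every adult one, and every adult peak began before every embryonic one. Of the 12 pairs of an embryonic and an adult library, 8 shared no base, and the others shared 201 to 352 bp.

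The centre of the H2A.Z peaks at Igf2bp1 was on average 1491 bp higher in coordinate in embryonic than in adult libraries. Embryonic centres lay at 95868067 to 95868344 and adult ones at 95866555 to 95866980, with no overlap. Among the 11556 union regions with peaks in 3 or more libraries on each side, centres did not overlap in 15.9%, and in 0.363% they were also 1 kb or more apart. The median distance was 85.8 bp, and 10 regions (0.0865%) were shifted as far as that at Igf2bp1. These regions were not matched for width, and a narrow region cannot hold a shift as large as in this one of 3407 bp. Neighbouring peaks that no library joined into 1 region were not counted either. The share therefore does not show how unusual the shift is. The distance between centres was chosen as a measure after the peaks had been seen. It stood at 1573 bp without enterocyte replicate 1, the other short-fragment library, and at 1431 to 1573 bp on leaving out each library. In these settings the region was kept as joined from all 8 lists. Only the peak of E12.5 replicate 1 overlapped adult peaks, so without that library the sides would form separate regions. The range therefore cannot show whether the shift rests on that library. The peaks were not among the strongest. Their fold was 3.08 and 2.79 at E12.5, 2.71 at E14.5, 3.36 and 3.8 in ISC, and 4.28 and 4.02 in enterocytes.

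**Figure D3:**
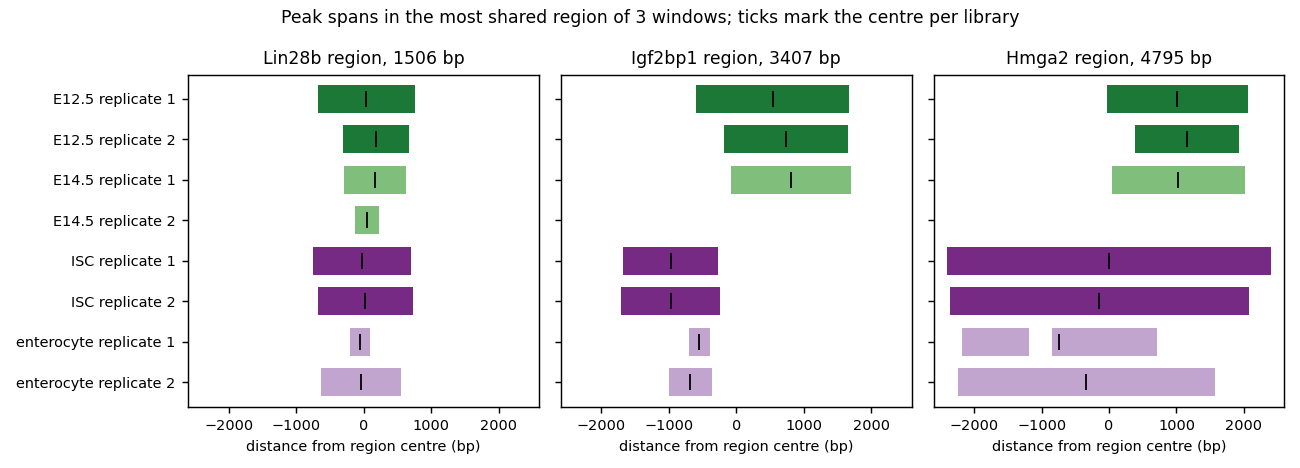
Span of the H2A.Z peaks of each library (bars, coloured by stage) in the most widely shared region of the Lin28b, Igf2bp1 and Hmga2 windows, by distance in bp from the region's centre, with the centre per library as a tick. At Igf2bp1 embryonic and adult peaks lie side by side, at Hmga2 the adult peaks extend farther to lower coordinates, and at Lin28b the centres differ by 130 bp on average.

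The other 2 Igf2bp1 regions were minor. A region at the lower edge of the window, chr11:95797731-95798224, had peaks in E12.5 replicate 1, ISC replicate 2 and enterocyte replicate 2, and a further one had a peak in E12.5 replicate 1 alone. Their folds were 2.76 to 3.19.

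In the Igf2bp3 window the ISC lists held peaks at many places where no embryonic list did. ISC had 9 and 8 peaks there, enterocytes 1 and 6, E12.5 3 and 1, and E14.5 2 and 0. Of the 14 regions, 10 (71.4%) had no embryonic peak, against 34.2% of all union regions, and 3 (21.4%) no adult peak, against 19.5%. The ISC lists are the longest, and in lists of equal number none of these 10 regions (0 of 10) had a peak. The remaining one, chr6:49023201-49024556, had a peak in 7 libraries, the highest of the window in 6 of them. It lay 8.9 kb from the lower end of the window and 161.1 kb from the upper end. RefSeq's table has Malsu1, a mitochondrial ribosome assembly factor, overlapping Igf2bp3 on the side of lower coordinates. Its fold was 4.03 and 3.06 at E12.5, 3.20 in E14.5 replicate 1, 4.42 and 4.92 in ISC, and 4.75 and 5.12 in enterocytes. Adult coverage was 1150 ± 112 bp and embryonic coverage 688 ± 473 bp (SD, n = 4 each side; exact p by permutation = 0.0571, adjusted p = 0.831).

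Near the upper end of the Igf2bp3 window, the region chr6:49163658-49165644 was covered over 1987 and 1857 bp in ISC and 694 bp in enterocyte replicate 2. It had no peak in the other 5 libraries, the 4 embryonic ones included. Its folds were 3.25 and 3.22 in ISC and 3.70 in enterocyte replicate 2, at the 49.1, 47.5 and 49.7 percentile of their lists. The region chr6:49098562-49101756 showed the same 3 libraries, with 2021, 2518 and 1456 bp. The region chr6:49088327-49089066 was also covered over 740 and 413 bp in ISC and 236 bp in enterocyte replicate 2. The region chr6:49095878-49096824 had a peak in both ISC libraries alone, with a fold of 2.32 and 2.38 that placed it at the 4.2 and 2.8 percentile. The 3 regions without an adult peak lay within 14.8 kb of the upper end, each in 1 embryonic library: chr6:49169944-49170390 and chr6:49179678-49180006 in E12.5 replicate 1, and chr6:49177320-49178384, with a fold of 3.29, in E14.5 replicate 1. In all, the 13 regions of the window with peaks in fewer than 4 libraries had folds of 2.32 to 3.70.

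At Hmga2 the difference between adult and embryonic cells was the largest of the 5 windows, and lay in the extent of a shared region and in 8 regions without any embryonic peak. The shared region chr10:119911182-119915976 was covered over 2102 and 1534 bp at E12.5, 1968 and 0 bp at E14.5, 4795 and 4425 bp in ISC, and 2543 and 3822 bp in enterocytes. The adult libraries thus all exceeded the embryonic ones, with means of 3896 ± 987 and 1401 ± 965 bp (SD, n = 4 each side; exact p by permutation = 0.0286, adjusted p = 0.809, the smallest over all regions). Among all union regions 3.31% had every adult above every embryonic library in covered bp and 0.224% the reverse, against 2 and 0 of the 32 member regions. The difference, embryonic minus adult, was -2495 bp, and -2479 bp without both short-fragment libraries.

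The adult H2A.Z at the shared Hmga2 region extended farther to lower coordinates than the embryonic H2A.Z. The first peak of each adult library began between 119911182 and 119911403, and embryonic peaks between 119913544 and 119913970. Enterocyte replicate 1 had 2 peaks there, and the other libraries with a peak had 1. The embryonic peaks lay wholly within the ISC peaks of both libraries. The centre was 1371 bp higher in coordinate in embryonic libraries, without overlap, and 18 of the 11556 regions (0.156%) were shifted as far. Those regions were not matched for the width of this one, 4795 bp, so the share does not show how unusual the shift is. Without both short-fragment libraries the shift was 1227 bp. The fold was 2.95, 2.37 and 2.81 in the 3 embryonic libraries with a peak, at the 21.8, 0.8 and 24.5 percentile of their lists. In ISC it was 5.18 and 4.82, at the 91.7 and 88.4 percentile, and in enterocytes 4.36 and 4.45, at the 57.1 and 74.6 percentile.

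The other 8 of the 9 regions of the Hmga2 window (88.9%, against 34.2% of all union regions) had peaks in adult libraries alone. In lists of equal number 1 of these 8 had a peak, the region at 119826274, in enterocyte replicate 1 alone. The widest, chr10:119826274-119830183, was covered over 1609 and 1283 bp in ISC and 734 and 3910 bp in enterocytes, and over 0 bp in all embryonic libraries (exact permutation p = 0.0286, adjusted p = 0.809). It was the only member region with peaks in all 4 adult and no embryonic library, 1 of 32 (3.12%), where 1.80% of all union regions passed this call. Its fold was 3.22 and 2.87 in ISC and 4.73 and 4.05 in enterocytes. Without enterocyte replicate 1, 8 of 32 member regions passed the call, against 6.17% of all union regions called the same way, and without both short-fragment libraries the same number did, against 6.19%. The regions that passed lay in the Igf2bp3, the Hmga2 and the H19 and Igf2 windows, and are not the 8 adult-only regions named above. The other 7 adult-only regions of the Hmga2 window were 231 to 1111 bp wide and had folds of 2.35 to 3.79. Of these, chr10:119806502-119807158, chr10:119835686-119836462 and chr10:119850573-119851134 had a peak in both ISC libraries and enterocyte replicate 2.

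H19 and Igf2 carried the fewest H2A.Z peaks of the 5 windows, 8 in all, with none in either E14.5 library or in enterocyte replicate 1. The region chr7:149765953-149766523, nearer the lower end of the window, had narrow peaks in both E12.5 libraries and in ISC replicate 1, of 498, 432 and 314 bp. Their folds were 2.65, 2.57 and 2.65, at the 6.0, 4.8 and 21.1 percentile of their lists. No other member region was present in both libraries of E12.5 and absent from those of E14.5. Nearer the upper end, chr7:149844359-149846910 was covered over 2552 and 1946 bp in ISC and 944 bp in enterocyte replicate 2, and had no embryonic peak. Its folds were 3.12 to 3.5. RefSeq's order of genes puts H19 on the side of lower coordinates and Igf2 on that of higher ones, and neither region was assigned to a gene. A peak in E12.5 replicate 1 alone, 1014 bp wide, lay between them.

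Along the sequence of stages, the members were read against all union regions. From E12.5 to E14.5, 1 of 13 member regions with a peak in these libraries (7.69%) was present in both libraries of E12.5 and absent from both of E14.5, against 15.8% of all regions, and 0 showed the reverse, against 0.192%. Between E14.5 and ISC, 9 of 27 regions (33.3%) were present in both ISC and neither E14.5 library, against 27.0% of all, and 0 the reverse, against 0.304%. These 9 lay in the Igf2bp3 window (4), the Hmga2 window (4) and that of H19 and Igf2 (1). Between ISC and enterocytes, 2 of 27 (7.41%), in the Lin28b and Igf2bp3 windows, were present in both ISC and neither enterocyte library, against 19.3% of all, and 0 the reverse, against 0.290%. No member region had peaks in all 4 embryonic and no adult library, which 0.193% of all regions had. With 2 libraries a stage these counts carry no test. E14.5 replicate 2, the shortest list, had 2 peaks in the 5 windows, both at Lin28b, and the part of list length in these counts was not tested.

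The members were also set beside all union regions in how many libraries held them. Of the 32, 1 (3.12%) had peaks in all 8 libraries, against 8.88% of all union regions, and 19 (59.4%) had no embryonic peak, against 34.2%. These 19 were not spread evenly: 10 lay in the Igf2bp3 window, 8 in the Hmga2 window and 1 in that of H19 and Igf2. In lists of equal number only 1 of them, at Hmga2, had a peak. Another 5 of the 32 (15.6%) had no adult peak, against 19.5% of all. Mean covered bp was higher in adult libraries in 23 of the 32 regions and in embryonic ones in 9. Over all 45028 union regions it was higher in adult libraries in 30756 and in embryonic ones in 14258. The median difference, embryonic minus adult, was -183 bp for the members, against -115 bp over all union regions.

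The rank of the highest peak in each window, taken within each list, separated the sides in the 4 windows other than Lin28b. The share of tiles separated in this way was not computed. At Hmga2 the highest-fold peak stood at the 0.8 to 24.5 percentile in the 3 embryonic libraries with a peak and at the 74.6 to 91.7 percentile in the adult ones. At Igf2bp1 these ranges were 17.2 to 33.8 and 49.2 to 67.2, and at Igf2bp3 35.8 to 65.0 and 80.2 to 89.8. The highest peaks of a window did not always lie in the same region. At Igf2bp1 the 33.8 of E12.5 replicate 1 was at the window's lower edge, and its peak in the main region stood at 28.4. At Hmga2 that of enterocyte replicate 1, at 82.6, lay in the region at 119826274, and its highest peak in the shared region stood at 57.1. The highest peak of the Igf2bp3 window lay in the region chr6:49023201-49024556 in every library with a peak except E14.5 replicate 1. In the H19 and Igf2 window the ranges were 4.8 to 14.9 in 2 embryonic and 40.7 to 46.5 in 3 adult libraries, with the embryonic and the adult peaks in different regions. Ranks from lists of different lengths show no change, so presence was also read in lists of equal length, that is the 6136 peaks of lowest p in each. There, the Lin28b window had a peak in 8 of 8 libraries, and the Hmga2 window in 4 of 4 adult and 0 of 4 embryonic ones. The Igf2bp3 window had a peak in 4 of 4 adult and 1 of 4 embryonic libraries. All of these Igf2bp3 window peaks lay in the region chr6:49023201-49024556, near the lower end of the window, which was not assigned to a gene. The Igf2bp1 and the H19 and Igf2 windows had no peak in any list of equal length. The share of tiles with such differences in presence was not computed either. Neither the ranks nor these counts are therefore shown to be particular to these windows.

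**Figure D4:**
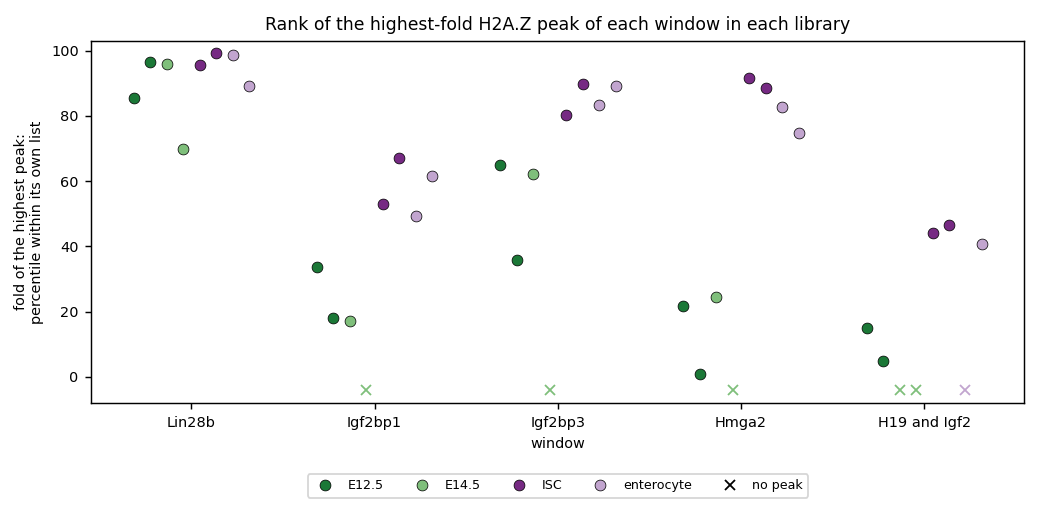
Percentile of the highest-fold H2A.Z peak of each window (x axis) among all peaks of its own list (y axis), per library and coloured by stage, with crosses for libraries without a peak. At Lin28b all libraries lie at the 69.7 percentile or above, and at Hmga2 the adult libraries lie at 74.6 or above and the embryonic ones at 24.5 or below.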

How the data were processed

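H2A.Z ChIP-seq lists of 8 libraries were used, and the 6 input samples entered only through the authors' calling. Per the submitters' processing notes, bcl2fastq 1.8.4, Bowtie 1.1.2, SAMtools 1.2 and build mm9 were used. Peaks were called per library with MACS 2.1.0.20140616 in broad mode (q cutoff 0.05, model fold 10 to 30) against an input, per the file headers. ISC libraries shared 1 input, and so did enterocyte libraries. The deposited pileup is a coverage signal, the deposited −log10 p and q measure evidence against the input, and the deposited fold is a ratio to local background. Peak widths in bp follow from the deposited starts and ends.

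Peaks that overlapped or touched were merged into union regions. Covered bp were summed per window, region and 100 kb tile. Embryonic and adult libraries were compared by exact two-sided permutation of the absolute difference of means over all 70 splits, with Benjamini-Hochberg adjustment over all tiles and windows, or all regions, in Python 3.11.15 (numpy 2.4.6, pandas 2.3.3). The code was tested on simulated data. A percentile is the share of a list's peaks with an equal or lower fold. Depth was 27835048 to 41274126 tags per library, and the lists hold no counts per region, so no counting interval is given.

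All 6 genes are named, and a region is described in full if it had peaks in 4 or more libraries or passed a stage call. The genes, windows and lists were chosen with earlier results of these data known. Alternatives were a −log10 q of at least 10, equal numbers of peaks, coverage per Mb of the list, peak midpoints, a replicate block, 50% coverage, merging within 500 bp and leaving out each library. Leaving out both short-fragment libraries, coverage per Mb without them or E14.5 replicate 2, and all comparisons of single regions and centres were added after the data were seen. The further pathway genes and cell type markers planned for an mm9 gene table were not analysed here.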

Additional observations from a re-analysis of the deposited data

How the results depend on the processing

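The 5 window differences, embryonic minus adult, kept their direction on leaving out each library, with ranges of 0.250 to 0.767 points for Lin28b, 0.162 to 1.33 for Igf2bp1, -3.28 to -1.80 for Igf2bp3, -4.90 to -3.34 for Hmga2 and -1.19 to -0.398 for H19 and Igf2. None passed the adjusted threshold under any alternative (lowest adjusted exact permutation p = 0.201). At a −log10 q of at least 10 and with equal numbers of peaks the Igf2bp3 difference shrank to -0.351 and -0.537, and that of Hmga2 to -1.47 and -2.15. The Lin28b difference turned to -0.0755 points at a −log10 q of at least 10 and to -0.000323 with equal numbers of peaks, where the peaks of its mainly embryonic region were left out, except that of E14.5 replicate 2 in the lists of equal number. Under these 2 settings the Igf2bp1 and the H19 and Igf2 windows held no peak and gave no value. In the Lin28b region at 45165896 the covered difference of 19 bp ran from -53.9 to 99.4 on leaving out each library, and at 45205241 the difference of -172 bp from -435 to 17.1; the cause was not tested.

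Deviations of same-numbered libraries correlated at -0.619 to 0.308 between stages over tiles, above 0.1 in 2 of 6 stage pairs. The numbers were not taken to pair the libraries. The short-fragment lists, E14.5 replicate 2 and enterocyte replicate 1, carry different numbers, so this check cannot show whether same-numbered libraries belong together. With a replicate block the exact p was 0.0556 for Hmga2, the smallest it allows, 0.167 for Igf2bp3, 0.389 for Lin28b, 0.444 for Igf2bp1 and 0.278 for H19 and Igf2, with the same differences of -3.97, -2.43, 0.503, 0.700 and -0.794. Since 0.0556 lies above the threshold of 0.05, no window could have passed with this block.

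The counts of called member regions moved with the setting. Except for 2 settings of the call for all adult and no embryonic libraries, the share over all union regions was not computed for them. They therefore show only how the counts depend on the setting, and no result about the members. ISC and not E14.5 was 3 at a −log10 q of at least 10 and 1 with equal numbers of peaks, and all adult and no embryonic libraries was 0 under both. With equal numbers, E12.5 and not E14.5, and ISC and not enterocyte, were 0. With 50% of a region covered, ISC and not enterocyte was 6. Without both short-fragment libraries, all adult and no embryonic libraries was 8, and E14.5 and not E12.5, E14.5 and not ISC, and enterocyte and not ISC were 1 each. On leaving out each library the counts ran from 1 to 6 (E12.5 and not E14.5), 0 to 1 (E14.5 and not E12.5, E14.5 and not ISC, enterocyte and not ISC, all embryonic and no adult), 9 to 16 (ISC and not E14.5), 2 to 9 (ISC and not enterocyte) and 1 to 8 (all adult and no embryonic). Leaving out E12.5 replicate 2 gave 6 regions of E12.5 and not E14.5, and leaving out E14.5 replicate 1 gave 5. E14.5 and not E12.5 was 1 without E14.5 replicate 2, as was E14.5 and not ISC without that library or ISC replicate 1. ISC and not E14.5 was 14 without ISC replicate 1 and 16 without ISC replicate 2. ISC and not enterocyte was 4 and 7 without these, and 9 without enterocyte replicate 2. Enterocyte and not ISC was 1 without enterocyte replicate 1, and all embryonic and no adult libraries was 1 without ISC replicate 1. All adult and no embryonic libraries was 8 without enterocyte replicate 1 and 2 without E12.5 replicate 1.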
